A study of Homo sapiens with 9 samples.

Results

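The comparison described here is that of MM.1S cells treated with 80 µM epigallocatechin gallate (EGCG) for 24 h with the same cells given 0 µM for 24 h, read gene by gene. MM.1S is an established human multiple myeloma line, and EGCG is the main catechin of green tea. Each group had 3 RNA-seq libraries, replicates 1 to 3 of the control and replicates 1 to 3 at 80 µM, which are 6 of the 9 libraries of the study. The other 3 libraries, from cells given 40 µM, entered the fit to estimate the spread. All genes that passed a filter on low counts are included, 15982 of the 60675 gene identifiers measured. The submitters sought the mechanism by which EGCG leads myeloma cells to apoptosis.

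The study used 1 cell line in culture, so the control carries the same genetic background as the treated cells. The sources used here give no vehicle for the control, no strand setting of the counting and no way in which messenger RNA was selected, so reads of overlapping genes on opposite strands cannot be told apart. The labels do not say that replicates came from separate cultures, so p-values measure only the spread between these libraries. The 9 libraries held 12674490 to 16427343 counts. Of 10 plasma cell and myeloma markers, SDC1 and TNFRSF17 among them, all 10 passed the filter. Levels are given in CPM, a gene's counts relative to the scaled total of its library, but marker sums in this paragraph used unscaled totals. The 10 markers summed to 7003 to 7273 CPM in the control and 6016 to 6739 at 80 µM. Only 4 of 10 mature B cell markers passed, with CD22 and FCER2 at 0 and summed levels of 108.6 to 120.1 and 115.0 to 133.9 CPM. These sums hide opposite changes, as by the test below BACH2 was higher at 80 µM and CR2, CIITA and BLK lower. The call of BLK was lost when single libraries were left out. No more than 2 markers passed on each list for T and NK cells, monocytes, stromal cells and erythroid cells, and these lists summed to at most 9.03 CPM in any of the 6 libraries. RNA was taken in bulk, so fewer cells of a kind and less RNA per cell cannot be told apart.

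Several stress pathways form the background to the results. In the integrated stress response (ISR), kinases that sense amino acid shortage, misfolded protein or other damage slow translation and favour the transcription factor ATF4, which turns on genes for amino acid synthesis, import and tRNA charging. The factor NRF2 turns on antioxidant enzymes when oxidants or electrophiles modify its partner KEAP1, HSF1 turns on cytosolic chaperones, and p53 turns on genes of arrest and death. Plasma cells make large amounts of immunoglobulin and rely on a well developed endoplasmic reticulum (ER), and EGCG is known to oxidise in culture medium and release hydrogen peroxide.

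At 80 µM, 5574 genes differed from the control (34.9% of those tested) at a Benjamini-Hochberg adjusted p under 0.05 in edgeR's quasi-likelihood test. Of these, 2777 were higher (17.4%) and 2797 lower (17.5%). A change of 2-fold or more was found for 1880 genes (11.8%), of which 1135 were higher (7.10%) and 745 lower (4.66%). Called genes are said below to have risen or fallen, and every count of members should be read against these shares. The sizes were unequal in the 2 directions. Changes of 4-fold or more were found for 340 higher and 50 lower genes, of 8-fold or more for 128 and 6, and of 16-fold or more for 54 and 3. The median log2 fold change was 0.87 among the risen genes, -0.74 among the fallen genes and -0.001 over all tested genes. In the mean profile the risen genes went from 12.7% to 24.9% of all CPM and the fallen genes from 33.0% to 21.2%. A part of that gain, less than the rest, lay in 2 risen genes, the mitochondrial ribosomal RNAs described below. They went from 0.699% to 4.27% of all counts. The groups did not overlap for 5492 of the 5574 called genes, but over all tested genes 24.6% were higher and 25.3% lower without overlap, so the lack of overlap alone does not mark a called gene.

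**Figure D1:**
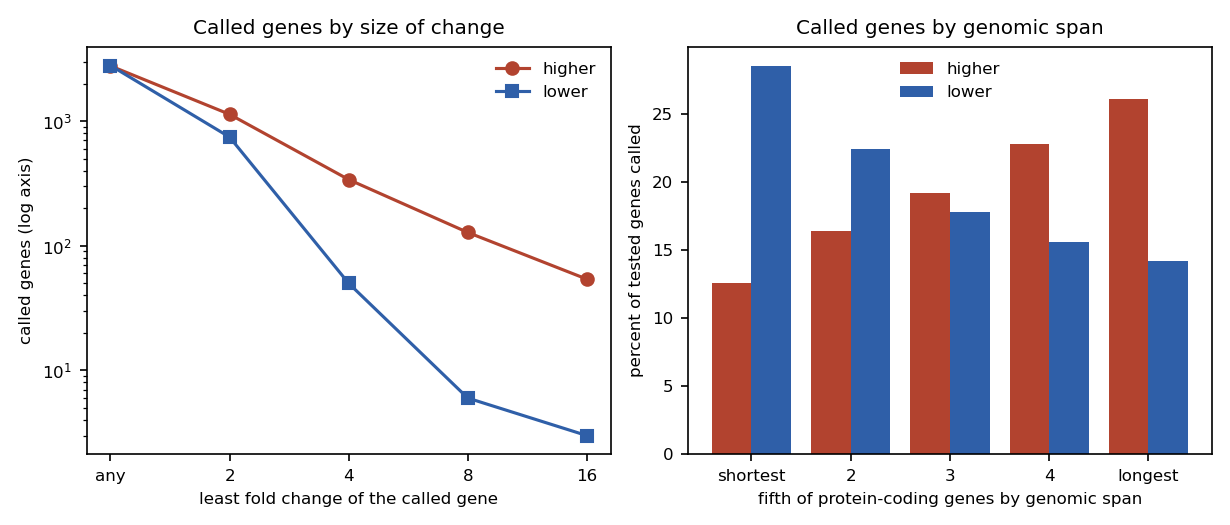
Left, number of called genes (log axis) against the least fold change from control at 80 µM, separately for higher and lower genes. Right, percent of protein-coding genes called higher or lower in 5 equal groups by genomic span. The 2 directions start at 2777 and 2797 genes and part with size, to 54 and 3 genes at 16-fold. The higher share goes from 12.6% in the shortest to 26.1% in the longest group, and the lower share from 28.5% to 14.2%.

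Among the transcription factors and feedback genes of the ISR most members rose. Of 15 tested members 11 rose and 0 fell, with a median log2 fold change of 1.50. TRIB3 (chr20:362835-397559), a pseudokinase that feeds back on ATF4, read 31.2, 32.4 and 39.7 CPM in control replicates 1 to 3 and 586, 546 and 584 CPM at 80 µM. Every treated library was far above every control library, with a log2 fold change of 4.05 ± 0.12 (all changes below are log2 fold changes, ± SE, adjusted p = 1e-07). CEBPB, a bZIP factor that pairs with ATF4, read 32, 28.6 and 33.7 CPM in the control and 219.8, 219.8 and 227 CPM at 80 µM (2.82 ± 0.12, adjusted p = 4.5e-07). The treated libraries were nearly equal and clear of the control. CHAC1, which degrades glutathione, read 5.87, 5.5 and 5.82 CPM in the control and 31.6, 28.9 and 32.8 CPM at 80 µM (2.44 ± 0.12, adjusted p = 1.1e-06). PPP1R15A, which brings the phosphatase that ends the response, rose by 2.21 ± 0.13. EIF2AK4 encodes GCN2, the kinase that senses uncharged tRNA, and read 70.6, 72.7 and 72.6 CPM in the control and 200, 201 and 191 CPM at 80 µM (1.45 ± 0.09). The libraries within each group lay close together.

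The message of ATF4 itself, described after its values were seen, did not pass the test. It read 309, 282 and 109 CPM in the control and 749, 222 and 728 CPM at 80 µM (1.28 ± 0.51, adjusted p = 0.0766). Control replicate 3 and 80 µM replicate 2 were low, and the groups overlapped. DDIT3, which encodes CHOP and was also chosen after its values were seen, read 10.1, 7.74 and 9.19 CPM in the control and 77.1, 51.5 and 56.3 CPM at 80 µM (2.77 ± 0.20, adjusted p = 7.9e-06), without overlap.

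Enzymes that make amino acids and one-carbon units rose for 13 of 18 members (median 1.13). PSAT1, the aminotransferase of serine synthesis, read 67, 67.5 and 72.1 CPM in the control and 453, 402 and 415 CPM at 80 µM (2.62 ± 0.10, adjusted p = 2.3e-07). CTH, which makes cysteine from cystathionine, read 1.96, 2.01 and 2.68 and then 24.2, 25.2 and 21.3 CPM (3.41 ± 0.19, adjusted p = 2.2e-06). ALDH1L2, the mitochondrial formyltetrahydrofolate dehydrogenase, read 11.6, 12.2 and 11.6 and then 111, 119.5 and 110.5 CPM (3.27 ± 0.14). For all 3 genes the highest control library was well below the lowest treated one. ASNS, asparagine synthetase, rose by 2.37 ± 0.20, PHGDH, the first enzyme of serine synthesis, by 1.64 ± 0.14 and mitochondrial MTHFD2 by 1.20 ± 0.10. The 3 members that fell were ALDH18A1 of proline synthesis (-1.11 ± 0.11), MTHFD1 (-0.91 ± 0.09) and SHMT1 (-0.51 ± 0.12), the latter 2 being the cytosolic folate enzymes.

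Amino acid transporters rose for 8 of 18 members and fell for 2, SLC38A5 (-0.98) and SLC38A9, whose call was lost when single libraries were left out (median 0.28). SLC7A11, the cystine importer, read 10.4, 14.9 and 7.88 CPM in the control and 166, 171 and 156 CPM at 80 µM (3.89 ± 0.23, adjusted p = 2.9e-06). It overlaps an antisense gene, so without strand information its reads cannot be fully assigned. Its partner chain SLC3A2 rose by 2.44 ± 0.13 and the glycine transporter SLC6A9 by 3.17 ± 0.14. Cytosolic aminoacyl-tRNA synthetases, which charge tRNAs, rose for 10 of 20, led by WARS1 (1.90 ± 0.18), CARS1 (1.64 ± 0.12), SARS1 (1.62 ± 0.13), GARS1 (1.61 ± 0.10) and AARS1 (1.48 ± 0.10). FARSA and FARSB, the subunits of the phenylalanine enzyme, fell by 0.85 and 0.69 on the log2 scale. None of the 16 mitochondrial synthetases rose and 7 fell (median -0.37), a count of 3 without 80 µM replicate 3. MARS2, the mitochondrial methionine enzyme, read 71.1, 69 and 78.2 CPM in the control and 33.2, 34.2 and 37.3 CPM at 80 µM (-1.06 ± 0.11, adjusted p = 5.7e-05). All treated libraries were below all controls.

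Among sestrins and other regulators of mTORC1, the kinase that couples growth to nutrients, 7 of 17 rose and 4 fell. SESN2, a leucine-sensing sestrin, was scarce at 0.135, 0.297 and 0.153 CPM in the control and read 4.17, 4.46 and 4.21 CPM at 80 µM (4.40 ± 0.37). FNIP1 and FLCN, which act together on the RAG GTPases, rose by 1.37 ± 0.18 and 1.01 ± 0.11, whereas DDIT4, DEPTOR and CASTOR2 fell by 0.66, 0.52 and 0.67 on the log2 scale. The fall of the fourth, NPRL2, was lost under some settings.

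**Figure D2:**
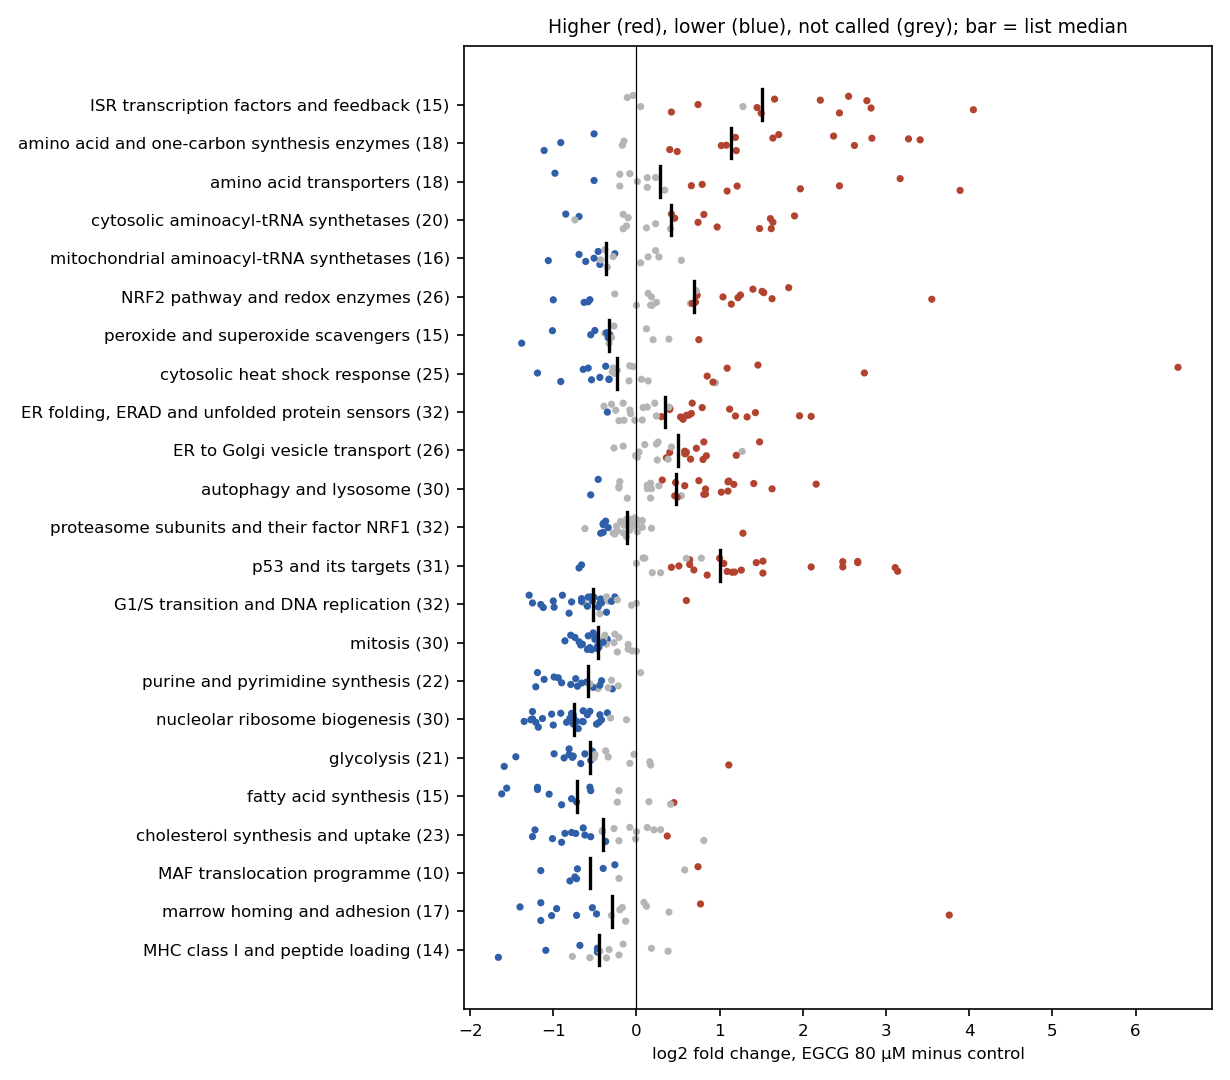
Log2 fold change, 80 µM minus control, of every tested member of 23 gene lists (number tested in brackets), in red where higher, blue where lower and grey where not called, with a bar at each list's median. The ISR, amino acid synthesis and p53 lists have medians of 1.50, 1.13 and 1.00, and the nucleolar and fatty acid lists -0.75 and -0.72.

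The following stretches of DNA, from RefSeq promoter sequences on GRCh38.p14, show where letters of the composite element bound by ATF4 and CHOP, TGATGNAA, occur upstream of 4 risen genes. They are shown because these genes rose with the ISR list, or, for KLHDC7B, from near absence. Each runs 5′ to 3′ along the gene's strand, and capitals mark the match on either strand. A match describes letters and is not evidence of binding.
ASNS, chr7:97872459-97872486, minus strand: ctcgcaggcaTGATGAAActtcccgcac
CHAC1, chr15:40953252-40953279, plus strand: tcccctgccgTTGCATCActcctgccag
AARS1, chr16:70289676-70289703, minus strand: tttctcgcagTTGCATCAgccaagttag
KLHDC7B, chr22:50545718-50545785, plus strand: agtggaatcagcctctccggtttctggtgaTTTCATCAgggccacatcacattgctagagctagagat
The matches begin 68, 209, 187 and 151 bases upstream of an annotated start for ASNS, CHAC1, AARS1 and KLHDC7B. ASNS has 2 promoter windows, of which 1 matched. The element was searched on both strands in the 250 bases before the start. A promoter sequence was at hand for 80.8% of tested protein-coding genes, and all shares of genes cover only those. The element was found for 231 of 9946 such genes (2.32%), 69 of 1918 that rose (3.60%) and 35 of 1962 that fell (1.78%). Of all 35116 promoter windows, 3.14% held it. A gene was counted if any of its windows matched, so its share and that of single windows are unlike measures. Among list members with a promoter sequence, 4 of 14 ISR factors, 3 of 16 cytosolic synthetases and 1 of 17 amino acid transporters held it. These counts depend on the window. In the whole window of 300 bases, which runs past the start, they were 4 of 14, 7 of 16 and 5 of 17. The shares in that window were 2.75% of genes tested, 4.59% of risen and 1.94% of fallen genes. The amino acid synthesis list had promoter sequences for only 66.7% of its members, so its share is void. Protein-coding genes changed by 2-fold or more had a promoter sequence for only 77.0% (higher) and 77.2% (lower), so their shares are void and not given.

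NRF2 targets and redox enzymes rose for 13 of 26 members and fell for 4 (median 0.69). The 4 that fell were MAFG (-1.0), the exporter ABCC1 (-0.63), PRDX1 and GSS, and the falls were 2 without 80 µM replicate 2 and 2 without control replicate 1. OSGIN1, an oxidative stress-induced growth inhibitor, read 0.607, 1.64 and 1.99 CPM in the control and 15.5, 16.9 and 16.8 CPM at 80 µM (3.55 ± 0.33, adjusted p = 3.7e-05). HMOX1, which opens the haem ring, read 30.6, 27.1 and 38.4 CPM in the control and 114, 110.5 and 117 CPM at 80 µM (1.83 ± 0.16). Neither gene overlapped between the groups. NQO1, SRXN1 and GCLM, a quinone reductase, sulfiredoxin and a subunit of the first glutathione enzyme, rose by 1.40 ± 0.12, 1.25 ± 0.11 and 1.04 ± 0.11. At 40 µM, in a comparison that shares the control libraries, the log2 values of HMOX1 and OSGIN1 were 1.69 and 1.37.

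Of 15 genes on a list of peroxide and superoxide scavengers and of thiol reductases, 7 fell and 1 rose, GLRX (0.75), which is one of the thiol reductases. Without 80 µM replicate 2 or replicate 3 the fallen members were 3 and 4. GPX1, the main cytosolic glutathione peroxidase, read 20.5, 20.8 and 27.4 CPM in the control and 7.66, 7.33 and 11.4 CPM at 80 µM (-1.38 ± 0.27, adjusted p = 0.00277). All treated libraries were lower. PRDX2, a cytosolic peroxiredoxin, changed by -1.01 ± 0.12. In iron handling 5 of 15 rose and 2 fell, with ALAS1 of haem synthesis (0.51) and, named after its values were seen, the transferrin receptor TFRC (0.38) the smallest of the rises. FTH1, the ferritin heavy chain that stores iron, read 72.6, 70.8 and 83.8 CPM in the control and 356, 340.4 and 368 CPM at 80 µM (2.23 ± 0.11, adjusted p = 7.4e-07). Its light chain FTL and biliverdin reductase B rose by 0.97 ± 0.14 and 1.05 ± 0.17, while biliverdin reductase A (BLVRA) and the ferrireductase STEAP3 changed by -1.08 ± 0.13 and -1.52 ± 0.17.

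**Figure D3:**
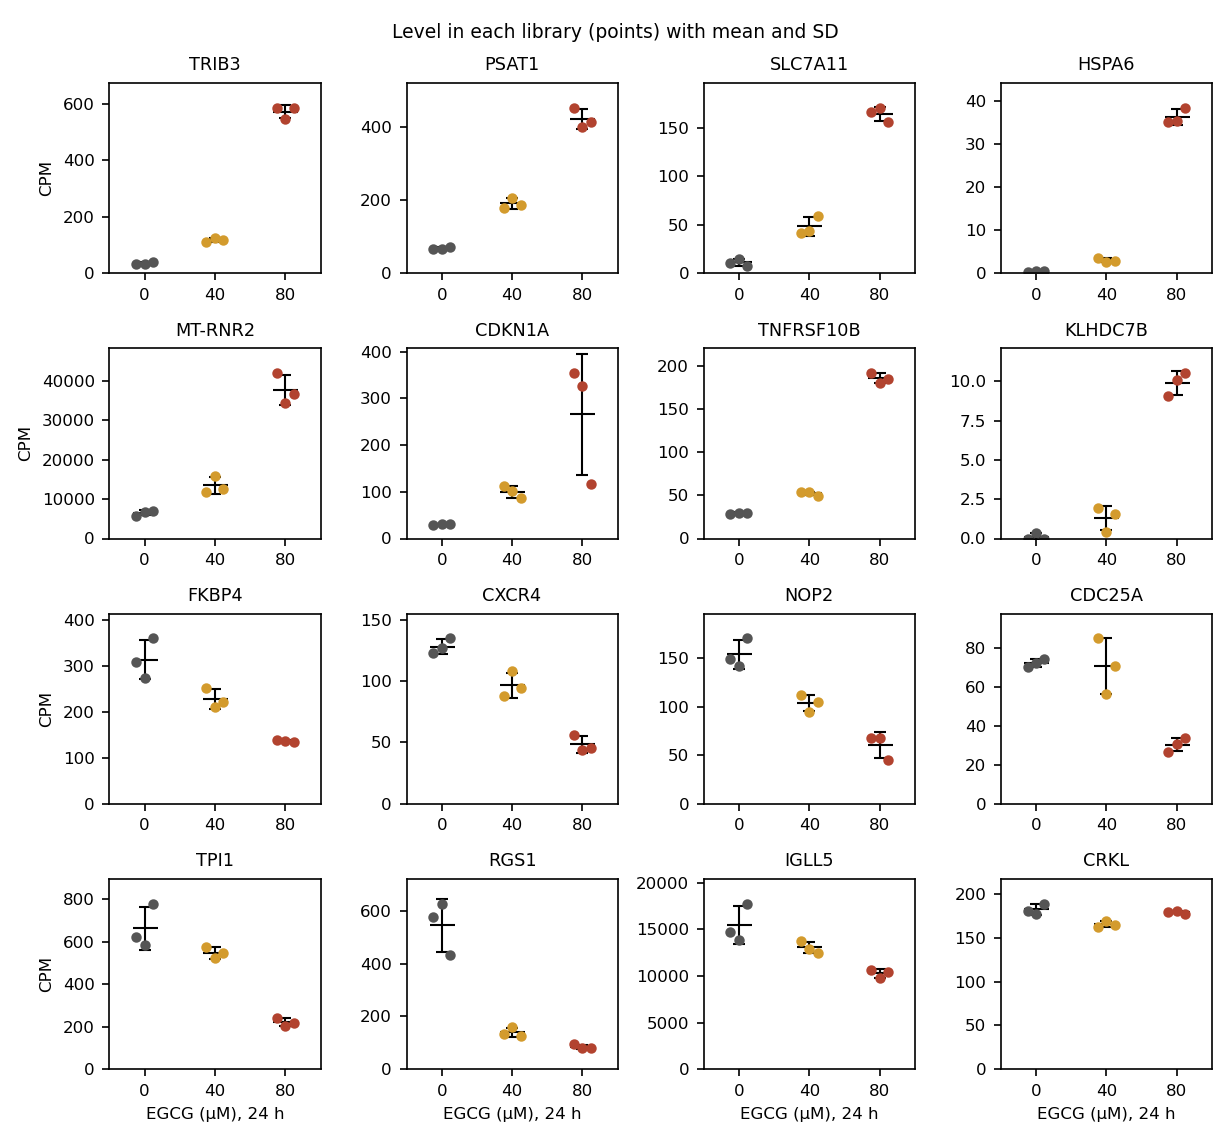
Level in CPM of 16 genes in each library (points) with the mean and SD of each group of 3, at 0, 40 and 80 µM EGCG. The treated libraries of TRIB3, PSAT1, SLC7A11, HSPA6 and TNFRSF10B lie far above the controls. One 80 µM library of CDKN1A, replicate 3, sits at 117 CPM below the other two, and CRKL is level.

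The cytosolic heat shock list did not move one way, with 6 of 25 risen and 9 fallen (median -0.23). The fallen members were 3 without 80 µM replicate 2 and 5 without 80 µM replicate 3. HSPA6 (chr1:161524540-161526910), a strictly inducible HSP70, read 0.27, 0.446 and 0.459 CPM in the control and 35.1, 35.4 and 38.4 CPM at 80 µM (6.51 ± 0.22). In raw counts it had 16 in the 3 control and 1519 in the 3 treated libraries, a ratio of 93.5 (exact binomial 95% interval 57.4 to 164, counting error only). HSPA7, a near-identical neighbour that can share its reads, had 1 count in the control and 230 at 80 µM. HSPA1B, another inducible HSP70, read 0.27, 0.149 and 0.23 CPM in the control and 1.64, 0.956 and 1.95 CPM at 80 µM (2.74 ± 0.47), and stayed scarce in every library. The co-chaperones DNAJB2, DNAJB4, DNAJB1 and BAG3 rose by 1.46 ± 0.17, 1.09 ± 0.20, 0.92 ± 0.20 and 0.85 ± 0.12. FKBP4, an HSP90 co-chaperone, read 308, 275 and 360.3 CPM in the control and 139.9, 138 and 136 CPM at 80 µM (-1.19 ± 0.12, adjusted p = 5.5e-05). Its treated libraries were nearly equal and all below the control. HSPE1, the mitochondrial HSP10, changed by -0.91 ± 0.13, and of the 8 subunits of the TRiC chaperonin, which folds actin and tubulin, 6 fell and none rose (median -0.53).

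The upstream regions of these inducible HSP70 genes hold the heat shock element core, GAANNTTC or TTCNNGAA, shown in capitals.
HSPA6, chr1:161524330-161524508, plus strand: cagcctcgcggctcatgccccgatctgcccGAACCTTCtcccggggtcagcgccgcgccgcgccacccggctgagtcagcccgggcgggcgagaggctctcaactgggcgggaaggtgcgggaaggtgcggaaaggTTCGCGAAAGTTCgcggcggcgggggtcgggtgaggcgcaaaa
HSPA1B, chr6:31827603-31827670, plus strand: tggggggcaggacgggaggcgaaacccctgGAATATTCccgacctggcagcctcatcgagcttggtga
Matches begin 180, 74 and 69 bases upstream of the HSPA6 start, the last pair overlapping each other, and 105 bases upstream of the HSPA1B start. Among tested protein-coding genes with a promoter sequence, the core was found for 12.2%, for 13.3% of risen and for 10.9% of fallen genes. Of the heat shock list, 13 of 23 members with such a sequence held it, risen and fallen members together.

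Folding and quality control genes of the ER rose for 16 of 32 members. The 1 that fell was CALR, a call lost when single libraries were left out (median of the list 0.34). HSPA5, the ER chaperone BiP, read 1096, 1072 and 1109 CPM in the control and 2469, 2330.4 and 2341 CPM at 80 µM (1.12 ± 0.09, adjusted p = 1.3e-05), so every treated library was more than double every control library. DNAJB9, a BiP co-chaperone, ERN1, which encodes the sensor IRE1, and SEL1L of the degradation complex rose by 1.96 ± 0.14, 1.43 ± 0.09 and 1.19 ± 0.13. The ER stress element is CCAAT and CCACG with 9 bases between them. Among tested protein-coding genes with a promoter sequence, 16 of 9946 held it (0.161%), with 7 risen genes (0.365%) and 1 fallen gene (0.051%). Of this list, 8 of 29 members with such a sequence held it. HSPA5 holds it 66 bases upstream, in capitals here.
HSPA5, chr9:125241361-125241439, minus strand: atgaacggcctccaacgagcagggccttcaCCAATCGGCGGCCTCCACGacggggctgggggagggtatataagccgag

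Genes of ER to Golgi vesicle transport, which encode coat proteins, cargo receptors and fusion factors, rose for 15 of 26 members and none fell (median 0.50). SEC24D, the cargo-binding subunit of COPII, read 72.3, 82.3 and 78.9 CPM in the control and 248, 207 and 196 CPM at 80 µM (1.48 ± 0.11, adjusted p = 1.1e-05). The lowest treated library was more than double the highest control. COPG1, of the COPI coat, rose by 1.20 ± 0.11. Autophagy and lysosome genes rose for 17 of 30 and fell for 2, the cathepsins CTSA (-0.55) and CTSB, the latter call being lost under some settings. SQSTM1, the receptor that carries ubiquitinated cargo into autophagosomes, read 498, 492 and 639 CPM in the control and 1727, 1614 and 1709 CPM at 80 µM (1.63 ± 0.12, adjusted p = 7.9e-06). WIPI1, the mitophagy receptor BNIP3L and the lysosomal factor TFE3 rose by 2.16 ± 0.18, 1.41 ± 0.14 and 1.17 ± 0.11. The proteasome list was nearly level: of 32 members 1 rose and 6 fell (median -0.12), and the fallen members were 0 without 80 µM replicate 2, 1 without 80 µM replicate 3 and 2, 3 and 3 without control replicates 1, 2 and 3. The riser was NFE2L1, the factor that drives proteasome genes, at 189, 246 and 284 CPM in the control and 395, 535 and 821 CPM at 80 µM (1.28 ± 0.25, adjusted p = 0.00272), with a wide spread in both groups.

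Genes of the p53 pathway rose for 22 of 31 members, and the 2 that fell were GADD45B (-0.69) and BTG2 (-0.66). The list's median was 1.00. CDKN1A, the CDK inhibitor p21, read 29.96, 31.1 and 31.5 CPM in the control and 354, 327 and 117 CPM at 80 µM (3.11 ± 0.34, adjusted p = 0.00011). Replicate 3 at 80 µM was well below the other treated libraries, yet above every control. TNFRSF10B, the death receptor DR5, read 28.3, 29.8 and 29.9 CPM in the control and 192, 180.3 and 184 CPM at 80 µM (2.66 ± 0.10, adjusted p = 1.4e-07). PHLDA3, an inhibitor of AKT, the BH3-only protein BBC3 (PUMA), the death receptor EDA2R and the reductase FDXR rose by 3.14 ± 0.18, 2.66 ± 0.27, 2.48 ± 0.13 and 2.10 ± 0.17. MDM2, the ubiquitin ligase of p53, rose by 1.52 ± 0.12, and the overlapping gene CPM (carboxypeptidase M) on the other strand by 4.02 ± 0.43.

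In the BCL2 family 6 of 14 rose and 2 fell. Risen members included killers (BBC3, PMAIP1 at 1.15 ± 0.24) and the protector BCL2 (0.89 ± 0.12), and the fallen ones were BID (-0.58), a killer, and BCL2L1 (-0.48), which encodes BCL-XL. Among death receptors, caspases and their inhibitors 10 of 24 rose and 5 fell (BIRC5, CASP6, CYCS, HTRA2 and TNFRSF10A), a fallen count of 2 to 3 when any one of 5 libraries of the 6 was left out. CFLAR, the FLIP inhibitor of caspase 8, read 71.9, 134 and 66.1 CPM in the control and 242, 239 and 235 CPM at 80 µM (1.40 ± 0.22, adjusted p = 0.00091). Control replicate 2 stood above the other 2 controls but below all treated libraries. The decoy receptor TNFRSF10D rose by 2.50 ± 0.19, and BIRC5 (survivin), an inhibitor also needed in mitosis, changed by -1.35 ± 0.20.

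Of 30 nucleolar factors of ribosome assembly 28 fell and none rose (median -0.75). NOP2, an rRNA methyltransferase, read 149, 142 and 170.5 CPM in the control and 68, 68 and 44.8 CPM at 80 µM (-1.35 ± 0.16, adjusted p = 0.00017). Every control was far above every treated library, of which replicate 3 was lowest. NOP16, NHP2 and RRP9 changed by -1.25 ± 0.11, -1.25 ± 0.14 and -1.21 ± 0.14. MYC, which drives this gene class and was described after its values were seen, read 20.1, 20.5 and 74 CPM in the control and 13.7, 31.1 and 11.8 CPM at 80 µM (-1.01 ± 0.59, adjusted p = 0.21). Control replicate 3 stood apart and the groups overlapped. Of 83 cytosolic ribosomal proteins 1 rose and 2 fell (median -0.05, a sign that turned in 2 settings). These 3, named after their values were seen, are paralogs of the core proteins, RPS27L (0.63, a known p53 target), RPL26L1 (-0.44) and RPL22L1 (-0.66).

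Enzymes of purine and pyrimidine synthesis fell for 16 of 22 members and none rose (median -0.58), with CTPS1, which makes CTP, at -1.21 ± 0.11 and CAD, the first enzyme of pyrimidine synthesis, at -0.90 ± 0.10. Genes of the G1/S transition and DNA replication fell for 23 of 32 (median -0.52). CDK6 was the 1 member called higher, and that call was lost under some settings. CDC25A, the phosphatase that activates CDK2, read 69.8, 71.9 and 73.9 CPM in the control and 26.7, 30.4 and 33.6 CPM at 80 µM (-1.25 ± 0.15, adjusted p = 0.0002). All treated libraries were below all controls. At 40 µM, against the same control libraries, its mean was 70.6 ± 14.2 CPM (SD, n = 3) and its log2 value -0.03. Cyclin E1 (CCNE1), the helicase subunit MCM4 and E2F1 changed by -1.29 ± 0.11, -1.15 ± 0.12 and -1.0 ± 0.12. Mitosis genes fell for 18 of 30 (median -0.46, 11 without 80 µM replicate 2), with AURKB and PLK1 at -0.86 ± 0.11 and -0.79 ± 0.11. Among CDK inhibitors and RB family genes 5 of 10 rose and 2 fell, the latter being RBL2 (-0.57 ± 0.11), of the RB family, and CDKN3, whose call was lost under some settings. The risers were led by CDKN1A, with CDKN2B (1.72 ± 0.36) next, then CDKN1C (0.79), RB1 and, named after its values were seen, CDKN2D, a risen count of 3 without 80 µM replicate 1 or 2 or control replicate 3. DNA repair genes fell for 10 of 27 (6 without 80 µM replicate 2 or control replicate 1), including the mismatch repair gene MSH6 (-1.10 ± 0.24).

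E2F sites, TTTGGCGC or TTTCCCGC, were found upstream of 3.92% of tested protein-coding genes with a promoter sequence. The shares were 3.02% of risen and 4.54% of fallen genes. Of the G1/S list, 12 of 26 members with such a sequence held a site. CDC25A holds one 44 bases upstream, shown in capitals because it carries the list's site beside a clear fall.
CDC25A, chr3:48188424-48188491, minus strand: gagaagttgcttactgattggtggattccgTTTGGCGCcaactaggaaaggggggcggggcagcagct

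Glycolytic genes fell for 12 of 21 members, and the 1 that rose was SLC2A3, a glucose transporter (1.11 ± 0.12). The list's median was -0.55. TPI1, triosephosphate isomerase, read 622, 587 and 779.8 CPM in the control and 241, 205 and 216 CPM at 80 µM (-1.59 ± 0.12, adjusted p = 1.4e-05). The treated libraries were far below the lowest control. HK2, PFKM and ENO1, at 3 steps of the pathway, changed by -0.87 ± 0.10, -0.99 ± 0.11 and -0.81 ± 0.11. Fatty acid synthesis genes fell for 10 of 15 (median -0.72). SCD, the desaturase that makes oleate, read 159, 162 and 185 CPM in the control and 57.3, 53.6 and 53.3 CPM at 80 µM (-1.62 ± 0.11, adjusted p = 7.1e-06). SREBF1, the factor that drives these genes, and FASN, the synthase, changed by -1.56 ± 0.11 and -1.19 ± 0.13. Cholesterol genes fell for 12 of 23 (median -0.41), with DHCR7 of the last step at -1.25 ± 0.11, and HMGCS1, called higher, lost that call under some settings.

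Of the gene classes summed, the mitochondrial ribosomal RNAs showed the largest shift in their share of each library. MT-RNR1 (chrM:648-1601), the small ribosomal RNA, read 492, 517 and 554 CPM in the control and 4762, 4129.9 and 4549.7 CPM at 80 µM (3.10 ± 0.12, adjusted p = 2.3e-07). MT-RNR2, the large one, read 5828, 6626 and 7066 and then 41985, 34506 and 36766 CPM (2.54 ± 0.15). Nuclear copies of mitochondrial sequence can share such reads. Together they took 0.649, 0.731 and 0.719% of counts in the control and 4.65, 3.97 and 4.18% at 80 µM, on average 0.699 ± 0.0444 and 4.27 ± 0.349% (SD, n = 3). The treated libraries were all far above the controls, and the exact two-sided permutation p was 0.1, the smallest that 3 against 3 libraries allow (0.143 adjusted over 10 gene classes). How much ribosomal RNA enters a library depends on how messenger RNA was selected, which the sources used here do not give, and its part in this result was not tested. The 13 mitochondrial messenger RNAs did not rise with them: 4 fell (MT-ND3, MT-CO2, MT-CO3 and MT-ND6, listed whether or not the naming rule took them), a count of 2 without 80 µM replicate 1 or 2, and their share went from 7.34 ± 0.431 to 6.16 ± 0.0683% (exact p 0.1). MT-CO2, a subunit of cytochrome oxidase, read 8710.3, 9752 and 9957 CPM in the control and 6474, 5883 and 6222 CPM at 80 µM (-0.61 ± 0.13).

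Of 75 nuclear-encoded respiratory chain genes 41 fell and 1 rose (median -0.44), the riser, NDUFB5 (0.40), being named after its values were seen, with 23 and 26 fallen without 80 µM replicate 2 and replicate 3. Of 77 mitochondrial ribosomal proteins 30 fell and none rose (median -0.39). Mitochondrial chaperones, proteases and import genes rose for 3 of 25 and fell for 10, the latter 6 without 80 µM replicate 2. The protease LONP1 and the HSP70 HSPA9 rose by 1.05 ± 0.12 and 0.87 ± 0.10, and YME1L1, the third riser, lost its call under some settings. The chaperone TRAP1 and the membrane ATPase ATAD3A changed by -1.08 ± 0.13 and -1.09 ± 0.15.

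**Figure D4:**
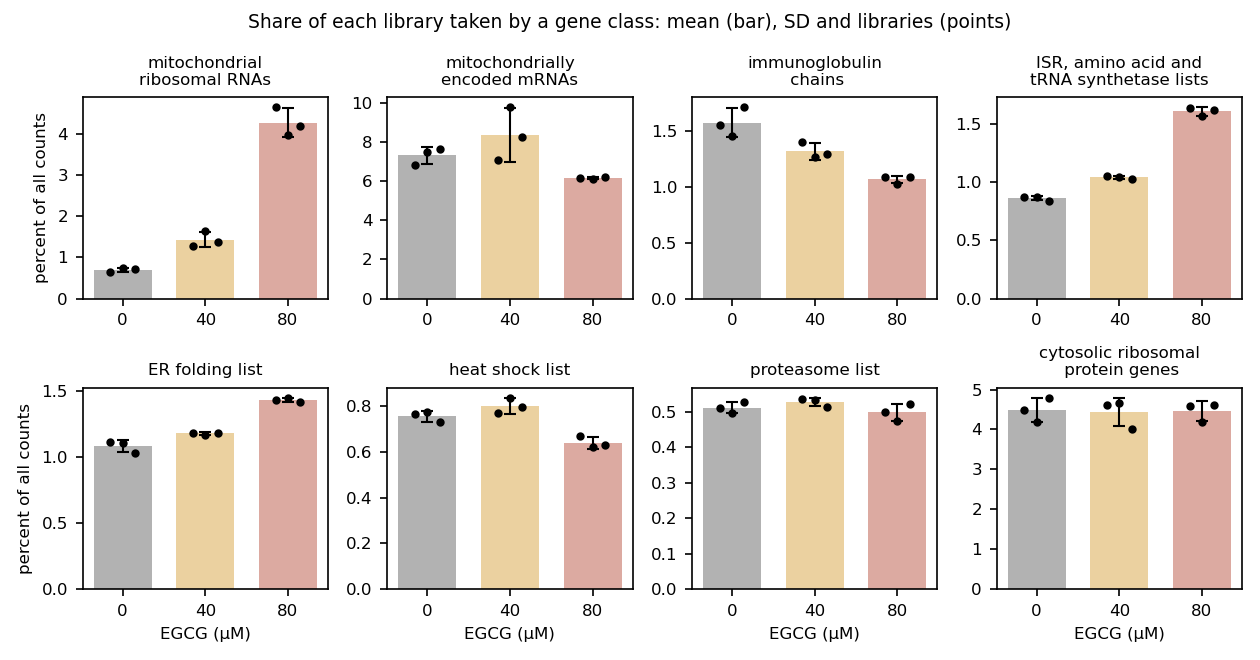
Percent of all counts in each library (points) taken by 8 gene classes at 0, 40 and 80 µM EGCG, with bars for the mean and lines for the SD of 3 libraries. The mitochondrial ribosomal RNAs go from 0.699 ± 0.0444% to 4.27 ± 0.349%, and the proteasome and cytosolic ribosomal protein classes overlap between 0 and 80 µM.

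By the same measure the ISR, amino acid and tRNA synthetase lists together went from 0.861 ± 0.018 to 1.61 ± 0.0386% of counts and the ER folding list from 1.08 ± 0.0465 to 1.43 ± 0.0179%. The heat shock list went from 0.757 ± 0.0238 to 0.64 ± 0.0256%. Neither these 3 classes nor the immunoglobulin chains overlapped between the groups, each with an exact two-sided permutation p of 0.1. Cytosolic ribosomal protein genes took 4.49 ± 0.303 and 4.46 ± 0.241% (exact p 0.9), a difference smaller than the spread between libraries.

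Plasma cell identity genes fell for 9 of 22 and rose for 4 (median -0.40). IRF4, the transcription factor on which myeloma cells depend, was one of the risers, at 999, 1012 and 1030.5 CPM in the control and 1646, 1709 and 1658 CPM at 80 µM (0.72 ± 0.09, adjusted p = 0.00018), with no overlap. The other risers were the receptors LY9 (0.87 ± 0.09) and SLAMF7 (0.45 ± 0.08) and the ubiquitin ligase subunit CRBN (0.47 ± 0.12). CD79B, a chain of the B cell receptor, and TNFRSF13B, a receptor for survival factors, changed by -1.19 ± 0.17 and -0.76 ± 0.15. All 5 immunoglobulin chain genes tested fell, 3 without 80 µM replicate 2 or replicate 3, and their share of counts went from 1.57 ± 0.13 to 1.07 ± 0.0337%. IGLL5, a lambda locus gene and an abundant one, read 14697, 13893 and 17763 CPM in the control and 10670.4, 9746 and 10452 CPM at 80 µM (-0.59 ± 0.11, adjusted p = 0.00279). Immunoglobulin genes share near-identical stretches, so single members are uncertain. JCHAIN, which joins secreted antibody, changed by -0.82 ± 0.13. Peptide presentation genes of MHC class I fell for 5 of 14 (3 without 80 µM replicate 3 or control replicate 1), with their activator NLRC5 at -1.66 ± 0.18.

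The MAF oncogene programme fell for 7 of 10 members, and SMURF2 was the 1 that rose (0.74 ± 0.13). MAF, a factor driven by a translocation in part of myelomas, read 1801, 1824 and 1802 CPM in the control and 1073, 1118 and 927 CPM at 80 µM (-0.80 ± 0.11, adjusted p = 0.00037). Its target ITGB7, an adhesion receptor subunit, read 5718, 5745 and 7815 CPM in the control and 3792, 3833 and 4069 CPM at 80 µM (-0.72 ± 0.13). ITGB7 overlaps ZNF740, named after its values were seen, whose log2 fold change was -0.71, so their reads cannot be fully told apart. Homing and adhesion genes fell for 8 of 17 and rose for 2. CXCR4, the receptor that holds plasma cells in marrow, read 123, 126 and 135 CPM in the control and 56.1, 43.4 and 45.8 CPM at 80 µM (-1.40 ± 0.13, adjusted p = 3.2e-05). Every treated library was far below every control library. The chemokine receptors CCR1 and CCR2 and the tetraspanin CD9 changed by -1.15 ± 0.10, -1.02 ± 0.13 and -1.15 ± 0.14. The risers were ICAM1 (0.77 ± 0.14) and ITGB2, a leukocyte integrin chain. ITGB2 had 6 counts in the control and 87 at 80 µM, a ratio of 14.3 (95% interval 6.30 to 40.0, counting error only). The log2 value of ITGB2 was 3.76, and 4.71 without control replicate 2.

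RGS1, which shuts off G protein signals from chemokine receptors, read 576, 628 and 432 CPM in the control and 94.2, 81 and 79 CPM at 80 µM (-2.69 ± 0.16, adjusted p = 3.1e-06). At 40 µM, against the same controls, its mean was 139 ± 17.8 CPM (SD, n = 3). Of 8 RGS genes 5 fell, and RGS3 (1.67 ± 0.13) and RGS16 (1.21 ± 0.12) rose. Of 11 Notch pathway genes 2 rose and 3 fell (median 0.09). The fallen ones were the HES family repressors HES1 and HES6 and the ligand DLL4, at -2.37 ± 0.17, -2.21 ± 0.28 and -2.22 ± 0.26. The risen ones were the ligand JAG1 (0.75 ± 0.14) and NOTCH2, whose call was lost under some settings. Immediate early genes fell for 8 of 19 (5 when any 80 µM library or control replicate 1 or 3 was left out), with FOS at -1.90 ± 0.21, and FOSL2 rose (0.92 ± 0.14). The log2 value of FOS at 40 µM was -2.57. Of 13 MAP kinase feedback genes 5 rose and 4 fell (median 0.12). The phosphatases DUSP1 and DUSP2 changed by -1.84 ± 0.11 and -1.81 ± 0.15, and the factor ETV5 and the inhibitor SPRED2 rose by 3.27 ± 0.15 and 1.19 ± 0.11. PTBP1, a splicing repressor, read 657, 666 and 733 CPM in the control and 241, 246 and 236 CPM at 80 µM (-1.51 ± 0.09, adjusted p = 3.7e-06), and its log2 value at 40 µM was -1.47. Other large falls were those of CGN, a tight junction protein (-2.65 ± 0.25), the adaptor PIK3AP1 (-2.46 ± 0.16), MEX3D (-2.34 ± 0.44), HPDL (-2.30 ± 0.19), SEMA3G (-2.27 ± 0.18) and WNK2 (-2.16 ± 0.14).

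Several genes rose from near absence. The 6 described first here passed the filter on low counts only through treated libraries. The same holds at least for OSGIN1, HSPA6, HSPA7, HSPA1B, SESN2 and ITGB2 above and for RCAN2, SLC35F1, MKX, SCN4A and INHBE below. For all of these a call had to follow from the high level and supports nothing further. GDF15, a secreted stress cytokine, had 7 counts in the control and 1791 at 80 µM and read 0, 0.446 and 0.0766 and then 47.1, 40.1 and 41.1 CPM (7.90 ± 0.42). Its log2 value was 9.91 without control replicate 2 and 7.30 without control replicate 1. KLHDC7B (chr22:50545891-50551023), a kelch domain protein, read 0, 0.372 and 0 CPM in the control and 9.07, 10.1 and 10.5 CPM at 80 µM (6.25 ± 0.72). All 5 control counts fell in control replicate 2, against 415 at 80 µM, a ratio of 81.8 (34.8 to 253). The log2 value was 10.14 without that library and 5.66 without control replicate 1. Intervals of count ratios in this paragraph, and their lower limits, cover counting error only and not the spread between libraries. ULBP1, a ligand seen by natural killer cells, had 2 and 124 counts, a ratio of 61.1 (16.6 to 510). OLAH, a thioesterase, had 3 and 285 counts. STK32A, a kinase, had no count in the control and 171 at 80 µM, which is at least 56.1-fold higher against a floor of 3 counts over the group (lower limit of the exact 95% interval 45.2). ACTA2 had 0 and 28 counts, at least 9.19-fold higher against the same floor (lower limit 6.995), and overlaps FAS, a death receptor gene described after its values were seen, at 1.44 ± 0.28. Other genes with large rises were RCAN2 (6.35 ± 0.49, 6 and 532 counts), SLC35F1 (5.07 ± 0.23), MKX (4.80 ± 0.28), the sodium channel SCN4A (4.70 ± 0.38), the hormones ADM2 (4.20 ± 0.24) and INHBE (4.24 ± 0.59, 8 and 161 counts, 3.64 to 5.04 with single libraries left out), and ABCB1, the drug efflux pump (2.85 ± 0.20).

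A part of the transcriptome could be placed near no change. The 95% interval lay within 0.5 of 0 on the log2 scale for 2475 genes (15.5%), 24 of them called, and 7957 genes (49.8%) were neither called nor that narrow. Among 2217 abundant genes, those averaging 100 CPM or more, 699 were within 0.5. CRKL, an adaptor of kinase signalling, read 181, 178 and 189 CPM in the control and 180.2, 181 and 178 CPM at 80 µM, with a log2 fold change of -0.02 (-0.20 to 0.16). Its libraries overlapped. LARP4B, RTF1, TRIM44 and BAZ1B were the next narrowest, at -0.01, -0.01, 0.0 and 0.03.

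Protein-coding genes with a longer genomic span had higher values. Over 5 equal groups from the shortest to the longest the median log2 fold change was -0.18, -0.07, 0.02, 0.08 and 0.13, and the median halfwidth of the interval was 0.387 and 0.386 in the shortest and the longest group. The longest group exceeded the shortest by 0.32, by 0.30, 0.35 and 0.25 in 80 µM replicates 1, 2 and 3 taken alone, and by 0.24 to 0.38 under the other settings. Among 31 named families with at least 8 tested members, the highest medians were those of ZNF zinc finger proteins (0.32, 99 of 407 risen, 65 with no filter, and 15 fallen, 8, 9 and 8 without 80 µM replicate 2, 80 µM replicate 3 and control replicate 1) and RAB GTPases of vesicle traffic (0.28, 18 of 51 risen). The lowest were those of mitochondrial transfer RNAs (-0.63, 10 of 22 fallen) and the TRiC chaperonin (-0.53).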

How the data were processed

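Per the file headers, the table from the authors pairs counts with FPKM for each library. The deposited counts are whole numbers without normalization, and the deposited FPKM values, scaled by length and depth, entered only alternative shares. HISAT2, SAMtools 1.3.1, CASAVA 1.8, edgeR and GRCh38 are named in the submitters' processing notes. For the counter and annotation release the sources used here give no name. Positions are those of GENCODE 29 on GRCh38.

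Counts of all 9 libraries (12674490 to 16427343 each) were filtered with filterByExpr, scaled by TMM and fitted with edgeR 4.0.16 (R 4.3.3), dose as the factor and 6 residual degrees of freedom, after a test on simulated data. DESeq2 1.42.0 and limma 3.58.1 were alternatives, beside other scalings, no filter, fewer libraries and a replicate block. Standard errors are the log2 fold change over the square root of F. Samples were grouped by their labels. Named genes are the largest changes, smallest p-values, the 6 lowest p-values per list with called members against its majority, the narrowest intervals and genes near 0 in 1 group. Members and lists were chosen with earlier results of these data known.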

Additional observations from a re-analysis of the deposited data

How the results depend on the processing

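The median halfwidth of the log2 interval was 0.423. Pairs of replicates differed by more than counting error alone gives, with chi-square values of 12.3 to 32.05 for each degree of freedom, and the halfwidth was 0.954 in the least abundant group of 5 and 0.278 in the most abundant. Called genes numbered 5452 to 5622 under DESeq2, limma-voom, other scalings or only the 6 libraries, 4820 with no filter and 4170 to 5775 with 1 library left out, against 5574; 2-fold calls were 1689 to 1998 with 1 library left out, against 1880. Replicate numbers did not pair the libraries (correlations -0.139 to 0.051), and the replicate block gave 5069 called genes and 1803 with a 2-fold change. Of 365 called genes under the naming rule, 303 kept their call in all 17 settings, 62 lost it in at least 1 and 0 reversed.

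Intervals within 0.25, in place of 0.5, left 62 genes, and 1722 to 2580 genes lay within 0.5 with 1 library left out. The difference in share of mitochondrial ribosomal RNAs, 3.57 percentage points, was 4.01 per count of nuclear genes and 8.0 from FPKM sums. From FPKM sums those of mitochondrial mRNAs, the heat shock list, the ISR, amino acid and synthetase lists and the ER folding list were -3.96, -0.0551, 0.339 and 0.196, against -1.18, -0.117, 0.746 and 0.349. The latter 2 were 0.812 and 0.405 per count outside the ribosomal RNAs. The sums per FPKM weight short genes more by construction.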

Other observations

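Interferon-stimulated genes split at 80 µM, with 7 of 20 risen and 5 fallen, the latter 2 to 3 with an 80 µM library left out (median 0.10). OAS1 and OAS3, enzymes that sense double-stranded RNA, rose by 1.71 ± 0.15 and 1.72 ± 0.17 on the log2 scale (± SE). MX1, an antiviral GTPase, and IFI6 changed by -0.82 ± 0.15 and -1.16 ± 0.25. OAS1 read 14.2, 12.4 and 11 CPM in the control and 45.4, 36.9 and 41.2 CPM at 80 µM, without overlap.

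DNA methylation writers and erasers rose for 5 of 13 members and fell for 5 (3 without 80 µM replicate 1). DNMT3A, which sets new methyl marks, and TET2, which oxidises them, rose by 0.89 ± 0.21 and 0.85 ± 0.16, whereas DNMT1, which copies marks after replication, changed by -0.61 ± 0.09. In polyamine metabolism SAT1, the acetyltransferase of breakdown, rose by 1.04 ± 0.12, and SRM and ODC1 of synthesis changed by -1.18 ± 0.10 and -0.71 ± 0.09.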
